A study of Mus musculus with 6 samples.

Results

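The genes described here are 8 members of the machinery by which macrophages recognise and take up dying cells and modified lipoproteins, measured in microglia of the mouse optic nerve. They are the TAM receptors Mertk and Axl, the bridging ligands Gas6, Pros1 and Mfge8, and the scavenger receptors Cd36, Msr1 and Scarb1. They were chosen by symbol, not by level, from a table of 37447 genes. Each symbol matched 1 row, and all 8 were among the 18208 genes tested. Microglia, the resident macrophages of nervous tissue, were enriched on Percoll and flow sorted from optic nerves of C57BL/6 mice aged 3 months. The 2 FM libraries (FM 1 labelled male, FM 2 labelled female) came from mice with the genotype Nf1 flox/mut, which carry 1 floxed and 1 mutant allele of the neurofibromatosis gene. The 4 FMC libraries (female by label for FMC 1 and FMC 4, male for FMC 2 and FMC 3) came from Nf1 flox/mut mice that also carried GFAP-Cre. This transgene expresses Cre recombinase from an astroglial promoter, so microglia are not the cells it targets, and both groups share the floxed and mutant alleles. The labels call the libraries biological replicates and do not say whether optic nerves of several animals were pooled.

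TAM receptors (Tyro3, Axl and Mertk) are receptor tyrosine kinases that do not bind a dying cell directly. Gas6 and protein S, the product of Pros1, bind phosphatidylserine exposed on the dying cell at one end and a TAM receptor at the other. Axl is bound by Gas6, whereas Mertk is bound by both ligands, and signalling through the receptors drives engulfment and dampens innate inflammatory responses. Mfge8 encodes a secreted protein that bridges phosphatidylserine to integrins instead. Cd36 and Scarb1 are related class B scavenger receptors that bind lipoproteins, fatty acids and apoptotic cells, and Msr1 is a class A scavenger receptor for modified lipoproteins and other polyanionic ligands. In the brain, Mertk and Axl of microglia are known for clearing apoptotic cells.

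Levels are FPKM, in which fragments are divided by transcript length and by library size, so levels of different genes can be set side by side. The number of genes with at least 1 FPKM ran from 13390 to 15562 per library, and FPKM of a library summed to between 420285 and 674799. Read totals were not used here. From the spacing of low values, depth relative to FMC 2 was 1.18 in FM 1, 1.67 in FM 2, 1.38 in FMC 1, 1.95 in FMC 3 and 2.14 in FMC 4, but routes by way of other libraries differed from these by 0.98 to 1.04 on the log2 scale. All 12 microglial markers were expressed in every library, with P2ry12 at 185 to 403 FPKM and Tmem119 at 156 to 440 FPKM. The sex markers of FMC 1, labelled female, were mixed. Xist, transcribed from the inactive X chromosome, was 16.3 FPKM there, against 0.819 and 1.22 FPKM in the other libraries labelled female and at most 0.0742 FPKM in those labelled male. Of the Y-linked genes in FMC 1, Ddx3y (6.18 FPKM) lay within the range of the libraries labelled male (5.82 to 11.0 FPKM) and Kdm5d (0.926 FPKM) within that of the other libraries labelled female (0.245 to 1.02 FPKM). Uty (16.3 FPKM) and Eif2s3y (3.37 FPKM) lay between the male range (24.0 to 30.1 and 57.8 to 114 FPKM) and the female range (0.516 to 0.923 and 0 to 1.39 FPKM). FMC 1 also had the highest summed level of the 10 T cell markers, 274 FPKM against 27.2 to 87.0 FPKM elsewhere. Nf1 was 39.3 to 50.0 FPKM (FM) and 48.0 to 138 FPKM (FMC), which is no test of the deletion because Cre acts in GFAP-expressing cells. Gfap itself reached 3.06 FPKM in FM 2 and was 0.183 to 0.309 FPKM in the other libraries.

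Gas6 and Pros1 were the members lower in every FMC library, as were 8.22% of all genes tested. Mertk and Axl were the steadier and the more variable TAM receptor. The sequences upstream of these 4 members are shown, and levels were not related to them. Each is the 250 bases before the transcription start in RefSeq on GRCm38.p6, written 5′ to 3′ on the strand of the gene. The windows are chr8:13494536-13494785 (minus strand) for Gas6, chr16:62854057-62854306 (plus strand) for Pros1, chr2:128698665-128698914 (plus strand) for Mertk and chr7:25788734-25788983 (minus strand) for Axl. Capitals mark matches, on either strand, to the GC box GGGCGG, the CCAAT box CCAAT, the PU.1 core GAGGAA or the gamma-activated site TTCNNNGAA.
Gas6: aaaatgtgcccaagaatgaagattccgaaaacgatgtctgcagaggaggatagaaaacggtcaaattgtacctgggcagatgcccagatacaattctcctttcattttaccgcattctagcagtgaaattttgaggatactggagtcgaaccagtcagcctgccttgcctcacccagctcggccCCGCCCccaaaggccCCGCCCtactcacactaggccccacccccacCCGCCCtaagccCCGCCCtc
Pros1: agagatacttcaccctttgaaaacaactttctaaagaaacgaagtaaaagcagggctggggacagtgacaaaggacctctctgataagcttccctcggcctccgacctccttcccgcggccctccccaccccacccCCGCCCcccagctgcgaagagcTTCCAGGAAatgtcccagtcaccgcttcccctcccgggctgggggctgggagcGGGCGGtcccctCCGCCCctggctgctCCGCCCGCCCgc
Mertk: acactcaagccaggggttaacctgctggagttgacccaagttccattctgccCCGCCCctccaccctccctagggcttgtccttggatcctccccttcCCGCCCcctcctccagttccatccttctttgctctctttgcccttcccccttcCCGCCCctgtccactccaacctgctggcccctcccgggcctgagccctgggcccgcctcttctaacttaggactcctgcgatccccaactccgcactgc
Axl: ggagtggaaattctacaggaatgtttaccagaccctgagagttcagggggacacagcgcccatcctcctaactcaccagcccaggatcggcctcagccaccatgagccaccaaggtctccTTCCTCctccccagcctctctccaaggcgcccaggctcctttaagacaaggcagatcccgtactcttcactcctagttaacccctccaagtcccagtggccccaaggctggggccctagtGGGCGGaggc
The GC box was found 4 times upstream of Gas6, 5 times upstream of Pros1, 3 times upstream of Mertk and 1 time upstream of Axl, where matches can overlap. It occurs in 32.7% of the 32851 windows of this length in the table. The Pros1 window also held 1 gamma-activated site (7.02% of windows) and the Axl window 1 PU.1 core (23.3% of windows). None of the 4 windows held the CCAAT box (33.8% of windows). GC content was 54.8% for Gas6, 64.4% for Pros1, 63.6% for Mertk and 60.0% for Axl, against a median of 52.4% over all windows. A match describes these letters only. Windows were found for 6 of the 8 members.

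The comparison of FMC with FM addresses how optic nerve microglia differ in the presence of GFAP-Cre in a study of optic glioma. No member passed the test. The bridging ligands Gas6 and Pros1 were the members whose groups did not overlap, both lower in FMC. Over all genes tested, 8.22% had every FMC library below both FM libraries, and Gas6 overlapped under median ratio scaling. Mertk was nearly level across the libraries, Axl and Cd36 had higher means in FMC with overlapping groups, and Mfge8, Msr1 and Scarb1 varied widely among FMC libraries. Of the 8 members 0 passed (limma on log2(FPKM + 1), Benjamini-Hochberg adjusted p under 0.05), 0 reached an unadjusted p under 0.05, and adjusted p ran from 0.993 to 0.999. Over all genes the same test called 5 (0.0275%, 0 higher and 5 lower), and 5.34% had an unadjusted p under 0.05 (1.14% higher and 4.2% lower). The median log2 difference was 0.14 over the 8 members, 4 above and 4 below 0, and -0.12 over all genes tested, 43.5% above and 56.5% below 0. Median ratio scaling moved the median of all genes to -0.01 and quantile normalization to 0.04. In sorted bulk samples fewer cells of a type and less RNA per cell cannot be told apart.

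**Figure D1:**
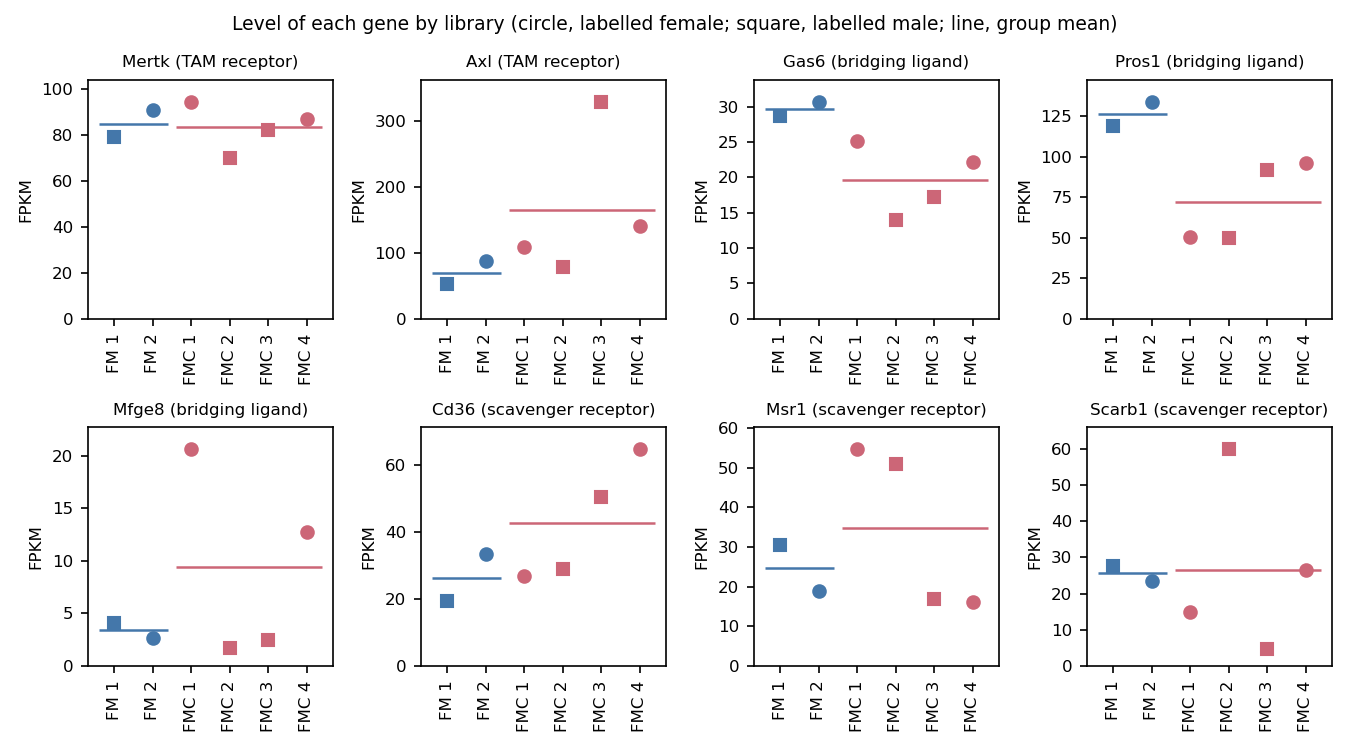
FPKM of the 8 members (vertical axis of each panel, from 0) in each of the 6 libraries (horizontal axis). Blue points are FM and red points FMC, circles are libraries labelled female and squares libraries labelled male, and lines are group means. For Gas6 and Pros1 all 4 FMC points lie below both FM points, as for 8.22% of all genes tested. Mertk lies between 70.0 and 94.4 FPKM throughout.

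Among the receptors, Mertk (ENSMUSG00000014361, chromosome 2 from 128524691 to 128628630 in mm9) was 78.8 FPKM in FM 1, 90.9 FPKM in FM 2 and, from FMC 1 to FMC 4, 94.4, 70.0, 82.2 and 86.9 FPKM. The FM values lie inside the FMC range. Its means were 84.9 ± 8.6 FPKM (SD, n = 2) and 83.4 ± 10.3 FPKM (SD, n = 4), with a difference of -0.03 ± 0.41 on the log2 scale (SE, limma adjusted p = 0.999, 95% interval -0.96 to 0.90). The highest library was 1.35 times the lowest. The SD of Mertk on the log2(FPKM + 1) scale was 0.15, and 24 of the 5635 genes of at least 10 FPKM by their mean on that scale (0.426%) had a smaller SD, where the median was 0.70. In each library Mertk ranked between percentile 97.0 and 97.7 of all genes listed. The sign of its small difference turned positive under median ratio scaling (0.12) and without FM 2 (0.07) or FMC 2 (0.05).

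Axl (ENSMUSG00000002602, chromosome 7 from 26542291 to 26573724 in mm9) was 52.8 FPKM in FM 1, 86.8 FPKM in FM 2 and, from FMC 1 to FMC 4, 109, 78.4, 329 and 141 FPKM. FMC 3 is the highest library, and FMC 2 lies below FM 2, so the groups overlap. The means were 69.8 ± 24.1 FPKM (SD, n = 2) and 164 ± 113 FPKM (SD, n = 4). The log2 difference was 1.05 ± 0.61 (SE, limma adjusted p = 0.993, 95% interval -0.34 to 2.44). Without FMC 3 it was 0.64. For the pairs of libraries with title dates 1 day apart, Axl was 1.48 times as high in FMC 2 as in FM 1 and 3.79 times as high in FMC 3 as in FM 2. FMC 3 and FM 2 also differ in labelled sex, here and below. Under median ratio scaling (FM 51.2 and 71.6, FMC 80.5 to 358) and under quantile normalization, every FMC library lay above FM. Leaving out FM 2 or FMC 2 removes the overlap by construction, and with any other library left out the groups still overlapped.

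The balance of the receptors was read within each library, where the scaling of the library cancels. The ratio of Axl to Mertk, as (FPKM + 1) over (FPKM + 1), was 0.674 and 0.955 in FM 1 and FM 2 and 1.16, 1.12, 3.96 and 1.61 in FMC 1 to FMC 4. By FPKM Mertk was thus the higher receptor in both FM libraries and Axl in all 4 FMC libraries. The ratio was close to 1 in FM 2, FMC 1 and FMC 2, so the order of the receptors there rests on small differences. The mean log2 ratio was -0.32 ± 0.36 (SD, n = 2) in FM and 0.76 ± 0.85 (SD, n = 4) in FMC. The difference of 1.08 had an exact permutation p of 0.133 (two-sided), where 15 splits allow no p under 0.0667, and without FMC 3 it was 0.67. Tyro3, the third TAM receptor and best known from neurons, was low, with 1.56 FPKM in FM 1, 9.67 FPKM in FM 2 and, from FMC 1 to FMC 4, 2.29, 2.85, 0.354 and 1.39 FPKM (log2 difference -1.05 ± 0.87 SE, limma adjusted p = 0.993).

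Of the bridging ligands, Gas6 (ENSMUSG00000031451, chromosome 8 from 13465373 to 13494535 in mm9) was 28.7 FPKM in FM 1, 30.7 FPKM in FM 2 and, from FMC 1 to FMC 4, 25.1, 13.9, 17.2 and 22.1 FPKM. Every FMC library lies below both FM libraries. The means were 29.7 ± 1.4 FPKM (SD, n = 2) and 19.6 ± 5.0 FPKM (SD, n = 4), so the FMC mean was 66.0% of that in FM. The log2 difference was -0.61 ± 0.49 (SE, limma adjusted p = 0.993, 95% interval -1.72 to 0.50). FMC 2 was 0.486 times FM 1, and FMC 3 was 0.559 times FM 2. Under median ratio scaling the groups overlapped, with FMC 1 at 26.5 above FM 2 at 25.3.

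Pros1 (ENSMUSG00000022912, chromosome 16 from 62854132 to 62929172 in mm9) was 119 FPKM in FM 1, 134 FPKM in FM 2 and, from FMC 1 to FMC 4, 50.5, 50.0, 91.7 and 96.3 FPKM. All FMC libraries again lie below both FM libraries, and FMC 1 and FMC 2 are the lowest. The means were 126 ± 11 FPKM (SD, n = 2) and 72.1 ± 25.3 FPKM (SD, n = 4), so the FMC mean was 57.1% of that in FM. The log2 difference was -0.87 ± 0.48 (SE, limma adjusted p = 0.993, 95% interval -1.94 to 0.21). FMC 2 was 0.421 times FM 1, and FMC 3 was 0.685 times FM 2. Leaving out a library, or changing the pseudocount or filter, cannot bring groups that lie apart into overlap. Under median ratio scaling and quantile normalization every FMC library stayed below FM for Pros1, and for Gas6 only under quantile normalization. Neither difference passed the test, and exact two-sided permutation tests gave p = 0.133 for each gene. Across all genes tested 8.22% had every FMC library below both FM libraries and 4.34% had every FMC library above, against 2 and 0 of the 8 members. Among genes with a mean of at least 10 FPKM the share below was 6.61%.

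Markers of border-associated macrophages, which line vessels and meninges and could enter a microglial sort, had a lower sum in every FMC library. None of the 9 passed the test (limma, 0 of 9). The summed level of the 9 of 10 listed markers with values was 447 FPKM in FM 1 and 605 FPKM in FM 2. From FMC 1 to FMC 4 it was 387, 306, 198 and 296 FPKM, with no overlap. Within FMC it was highest in FMC 1 and lowest in FMC 3, where Pros1 was 50.5 and 91.7 FPKM and Gas6 25.1 and 17.2 FPKM. Of the 9 markers, 8 had a log2 difference below 0. The exception was Clec4n, and Lyve1 was highest in FMC 1 (32.0 FPKM). Most of the sum came from Mrc1, Pf4 and Cbr2, and Cbr2 overlapped between groups (FM 119 and 158 FPKM, FMC 18.6 to 151 FPKM). The defining markers of the list were Mrc1 (FM 126 and 113 FPKM, FMC 60.5 to 87.9 FPKM) and Cd163 (FM 6.60 and 7.04 FPKM, FMC 0.973 to 6.77 FPKM). Pericyte and fibroblast markers summed to 99.4 and 161 FPKM (FM) and to between 15.0 and 112 FPKM (FMC). Much of these sums was Mgp (FM 74.5 and 128 FPKM, FMC 3.77 to 15.1 FPKM) and, in FMC 1, Dcn (90.2 FPKM). The defining markers were low in all libraries, with Pdgfrb at 0.269 to 2.33 FPKM and Rgs5 at 0.0207 to 0.222 FPKM. Of the 8 tested markers in that list 1 had a log2 difference above 0 (median -0.83). Sums were also lower in every FMC library for erythroid markers (25.3 to 33.0 FPKM, against 128 and 160 FPKM in FM) and for astrocyte markers (at most 122 FPKM, against 125 and 146 FPKM). The astrocyte sum was mostly Slc1a3, at 104 to 130 FPKM in every library. The other 9 astrocyte markers summed to 16.6 and 15.4 FPKM in FM and 2.23 to 18.7 FPKM in FMC, with overlap. All 12 microglial markers had a log2 difference below 0 (median -0.23), with sums that overlapped. Over all genes tested the median was -0.12, with 56.5% below 0. The part of border-associated macrophages in the levels of Gas6 and Pros1 was not tested. Endothelial markers overlapped between groups, with FM at 30.8 to 35.1 FPKM and FMC at 17.5 to 48.8 FPKM.

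The ligands were compared with each other and with their receptors. Pros1 was higher than Gas6 in all 6 libraries, by a ratio of 4.04 and 4.26 in FM 1 and FM 2 and 1.97, 3.42, 5.10 and 4.21 in FMC 1 to FMC 4. The difference in log2 ratio between groups was -0.26 (exact two-sided permutation p = 0.733), and it was 0.01 without FMC 1. Gas6 and Pros1 together amounted to 1.12 and 0.926 times Mertk and Axl together in FM 1 and FM 2 and to 0.371, 0.431, 0.265 and 0.520 times in FMC 1 to FMC 4. This sum was formed with the values of its genes known and was not tested. It sets the lower ligand levels against Axl levels that were higher in most FMC libraries.

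**Figure D2:**
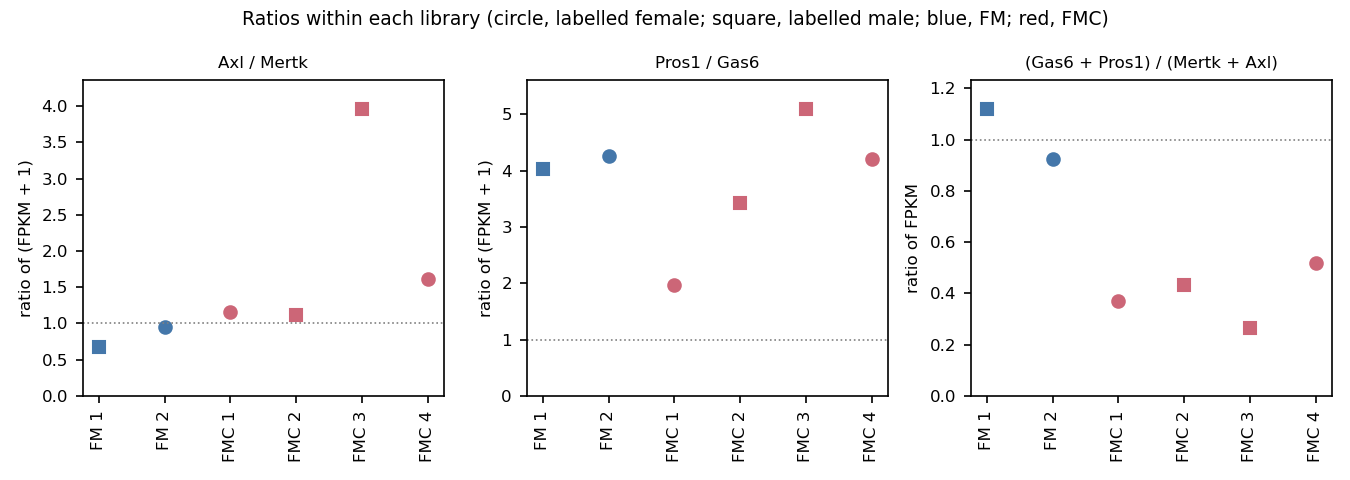
Ratios within each library (horizontal axis) of Axl to Mertk and of Pros1 to Gas6, each as (FPKM + 1) over (FPKM + 1), and of the summed FPKM of Gas6 and Pros1 to that of Mertk and Axl. Circles are libraries labelled female and squares libraries labelled male. The dotted line marks equal levels: the ratio of Axl to Mertk is above it in the 4 FMC libraries (red) and below it in the 2 FM libraries (blue), and the ratio of ligands to receptors is 0.926 and 1.12 in FM and at most 0.520 in FMC.

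Mfge8 (ENSMUSG00000030605, chromosome 7 from 86278654 to 86293946 in mm9) was the lowest member by mean, with 4.12 FPKM in FM 1, 2.63 FPKM in FM 2 and, from FMC 1 to FMC 4, 20.7, 1.70, 2.49 and 12.7 FPKM. FMC 1 and FMC 4 are high, while FMC 2 and FMC 3 lie below both FM libraries. The means were 3.37 ± 1.06 FPKM (SD, n = 2) and 9.39 ± 9.04 FPKM (SD, n = 4), with a difference of 0.76 ± 0.99 on the log2 scale (SE, limma adjusted p = 0.999, 95% interval -1.50 to 3.01). Without FMC 1 the FMC mean was 5.64 ± 6.15 FPKM and the log2 difference 0.23. In the pairs with title dates 1 day apart Mfge8 was 0.412 times as high in FMC 2 as in FM 1 and 0.949 times as high in FMC 3 as in FM 2. Astrocytes are a known source of Mfge8 in the brain. Apart from Slc1a3, at 104 to 130 FPKM in every library, the other 9 listed astrocyte markers summed to 16.6 FPKM in FM 1, 15.4 FPKM in FM 2 and, from FMC 1 to FMC 4, 9.61, 13.1, 2.23 and 18.7 FPKM. Of the defining ones Gfap was at most 0.309 FPKM in FMC, and Aqp4 was 0.235 to 1.55 FPKM. Aldh1l1, singled out after its values were seen, reached 3.03 FPKM in FMC 1 and 8.19 FPKM in FMC 4 and was at most 0.475 FPKM elsewhere. Others of the 9 peaked in other libraries: Slc1a2 in FMC 2 (7.78 FPKM), Gja1 in FM 2 (9.77 FPKM) and Aldoc in FM 1 (4.62 FPKM). Sox9 was 0 FPKM in FMC 1 and highest in FMC 4 (2.42 FPKM). The part of astrocytes in the level of Mfge8 was not tested.

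Of the scavenger receptors, Cd36 (ENSMUSG00000002944, chromosome 5 from 17287507 to 17394777 in mm9) was 19.3 FPKM in FM 1, 33.3 FPKM in FM 2 and, from FMC 1 to FMC 4, 26.8, 29.0, 50.3 and 64.7 FPKM. FMC 3 and FMC 4 are the highest, and FMC 1 and FMC 2 lie between the FM libraries. The means were 26.3 ± 9.9 FPKM (SD, n = 2) and 42.7 ± 18.1 FPKM (SD, n = 4), with a difference of 0.64 ± 0.54 on the log2 scale (SE, limma adjusted p = 0.993, 95% interval -0.60 to 1.87). It was 0.26 without FM 1 and 1.02 without FM 2. FMC 2 was 1.51 times FM 1, and FMC 3 was 1.51 times FM 2. Under median ratio scaling every FMC library lay above both FM libraries.

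Msr1 (ENSMUSG00000025044, chromosome 8 from 40667053 to 40728032 in mm9) was 30.5 FPKM in FM 1, 18.8 FPKM in FM 2 and, from FMC 1 to FMC 4, 54.8, 50.9, 16.9 and 16.2 FPKM. FMC 1 and FMC 2 lie above both FM libraries, and FMC 3 and FMC 4 below both. Its means were 24.6 ± 8.3 FPKM (SD, n = 2) and 34.7 ± 21.0 FPKM (SD, n = 4), with a difference of 0.30 ± 0.66 on the log2 scale (SE, limma adjusted p = 0.999, 95% interval -1.19 to 1.79). The difference was 0.01 without FMC 1 and -0.04 without FM 2. FMC 2 was 1.67 times FM 1, and FMC 3 was 0.901 times FM 2.

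Scarb1 (ENSMUSG00000037936, chromosome 5 from 125757456 to 125821464 in mm9) was 27.7 FPKM in FM 1, 23.6 FPKM in FM 2 and, from FMC 1 to FMC 4, 14.9, 60.0, 4.58 and 26.6 FPKM. FMC 2 is the highest and FMC 3 the lowest, 13.1 times apart, with both FM libraries in between. The means were 25.6 ± 2.9 FPKM (SD, n = 2) and 26.5 ± 24.1 FPKM (SD, n = 4). The log2 difference was -0.43 ± 0.86 (SE, limma adjusted p = 0.999, 95% interval -2.39 to 1.52), lower on the log scale although the linear means were nearly equal, and 0.17 without FMC 3. FMC 2 was 2.17 times FM 1, and FMC 3 was 0.194 times FM 2. The ratio of Cd36 to its relative Scarb1 was 0.706 and 1.40 in FM 1 and FM 2 and 1.75, 0.492, 9.20 and 2.38 in FMC 1 to FMC 4, a span of 18.7 times (difference in log2 ratio 1.07, exact two-sided permutation p = 0.467, and 0.36 without FMC 3). The corresponding differences in log2 ratio were 0.73 for Msr1 to Scarb1 (p = 0.533) and 0.79 for Mfge8 to Mertk (p = 0.467) in the same exact permutation test, without adjustment over the 5 ratios computed. Without FMC 1 they were 0.34 and 0.32.

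**Figure D3:**
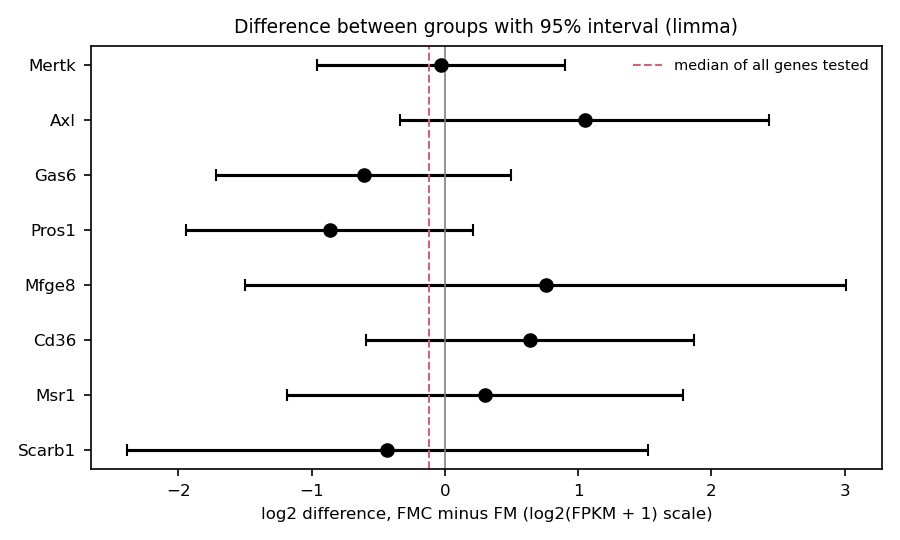
Log2 difference of each member, FMC minus FM, on the log2(FPKM + 1) scale (horizontal axis), with its 95% interval from limma (bars), from 2 FM and 4 FMC libraries. The dashed line is the median of all genes tested, -0.12, and the grey line is 0. Every interval includes 0, and that of Mfge8 is the widest, from -1.50 to 3.01.

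The members differed in how steady they were. By SD of log2(FPKM + 1) over the 6 libraries they ran from Mertk (0.15) through Gas6 (0.42), Pros1 (0.60), Cd36 (0.62), Msr1 (0.77) and Axl (0.90) to Scarb1 (1.15) and Mfge8 (1.21). The share of genes of at least 10 FPKM with a smaller SD was 17.1% for Gas6, 83.8% for Scarb1 and 86.8% for Mfge8. Mfge8 lies below that level itself.

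**Figure D4:**
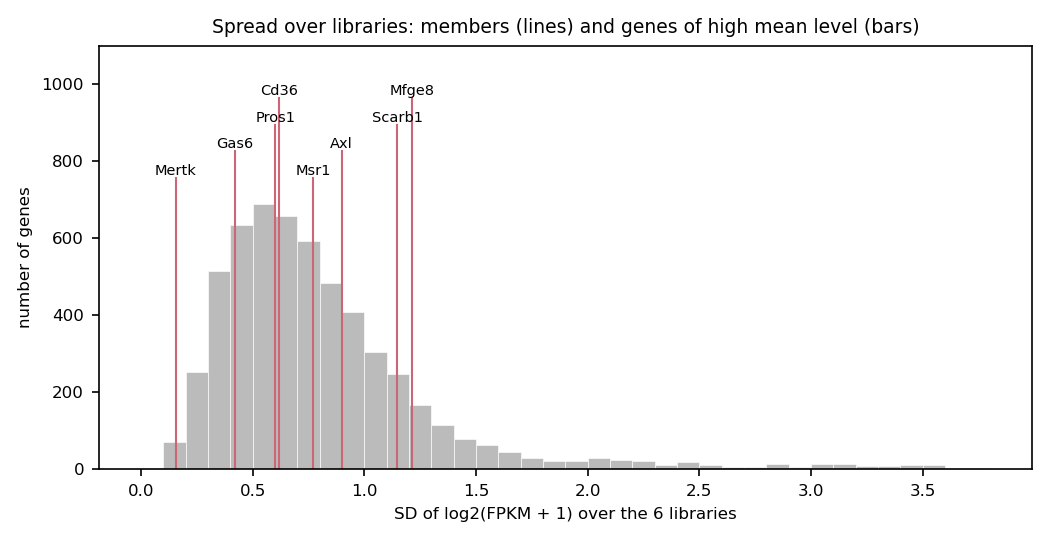
Number of genes (vertical axis) by the SD of log2(FPKM + 1) over the 6 libraries (horizontal axis), for the 5635 genes whose mean on that scale corresponds to at least 10 FPKM (grey bars, with 39 genes above 3.8 not drawn). Red lines mark the 8 members, whose heights are staggered for reading. Mertk lies at the left edge at 0.15, and Scarb1 and Mfge8 lie to the right of the peak at 1.15 and 1.21.

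In order of mean log2 level over the 6 libraries the genes ran Axl, Pros1, Mertk, Cd36, Msr1, Gas6, Scarb1, Mfge8 and Tyro3. Only Mertk and Cd36 were neighbours in this order with the same one higher in all 6 libraries, by 0.42 to 1.98 on the log2 scale. Axl exceeded Pros1, and Pros1 exceeded Mertk, in 4 of 6 libraries. Cd36 exceeded Msr1, and Msr1 exceeded Gas6, in 3 of 6. Gas6 exceeded Scarb1 in 4, Scarb1 exceeded Mfge8 in 5 and Mfge8 exceeded Tyro3 in 4. Axl, Pros1 and Mertk had overall means of 133, 90.2 and 83.9 FPKM, and Cd36 one of 37.2 FPKM.

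No member passed the test between labelled sexes (limma with genotype kept, male minus female, 0 of 8, smallest adjusted p = 0.742), and 0 genes passed over the whole table, where 1354 of 18208 (7.44%) had an unadjusted p under 0.05. The Y-linked Eif2s3y did not pass either, at 57.8 to 114 FPKM in libraries labelled male and at most 3.37 FPKM in the others. The test thus missed a known sex difference, and 0 of 8 does not show that the members are alike in both sexes. Mfge8 had the largest difference of the members, -1.49 ± 0.84 (SE, log2, limma adjusted p = 0.742), and -1.02 ± 0.92 (adjusted p = 0.788) without FMC 1, whose sex markers are mixed. Without FMC 1 the sex difference of Cd36 went from -0.34 to -0.75 (limma, adjusted p = 0.664) and that of Msr1 from 0.21 to 0.76 (adjusted p = 0.755). The interaction of genotype and sex passed for 0 of 8 members and for 0 genes (limma, 686 genes or 3.77% at an unadjusted p under 0.05).

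Beyond the 8 members, 7 lists of other genes of the uptake pathway held 112 genes, of which 97 were tested. None passed (limma, 0 of 97), and 2 higher and 1 lower reached an unadjusted p under 0.05. Groups did not overlap for 14 of the 97, with FMC above FM in 6 (6.19%) and below in 8 (8.25%), against 4.34% and 8.22% of all genes. The median log2 difference was -0.05, against -0.12 over all genes. The medians of the single lists, given below, rest on few libraries. With 1 library left out that of the engulfment machinery ran from -0.46 without FM 1 to -0.011 without FM 2, that of the nuclear receptors and lipid exporters from -0.14 to 0.23 and that of the other scavenger receptors from -0.48 to 0.30 between the same omissions. Those of the other 4 lists ran from -0.36 to 0.44 (TAM axis), -0.48 to 0.12 (other phosphatidylserine receptors), -0.14 to 0.13 (find-me and do-not-eat-me signals) and 0.047 to 0.34 (phagosome maturation).

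Of the other genes of the TAM axis, among them Tyro3 (values above), 8 were tested (3 higher, 5 lower, median -0.06). Of the other phosphatidylserine receptors and bridging molecules 21 were tested (8 higher, 13 lower, median -0.06). Cd300lf, a myeloid receptor that binds phosphatidylserine, was 4.09 FPKM in FM 1, 5.12 FPKM in FM 2 and, from FMC 1 to FMC 4, 13.5, 53.4, 16.4 and 70.2 FPKM, with no overlap. Its log2 difference of 2.49 ± 0.76 (SE, limma adjusted p = 0.664) was the largest of the lists. The integrin gene Itgax was 13.2 ± 8.3 and 43.5 ± 22.9 FPKM (SD, n = 2 and 4, limma adjusted p = 0.782).

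The engulfment machinery, the Rac activators and adaptors that reshape actin around the target, had 16 genes tested, 3 higher and 13 lower (median -0.22), and all overlapped between groups. Its smallest p values were those of Vav3 (17.8 ± 12.5 and 6.07 ± 5.76 FPKM in FM and FMC) and Was (23.2 ± 10.6 and 14.0 ± 7.0 FPKM), with limma adjusted p = 0.993 for both. Of the find-me receptors and do-not-eat-me signals 10 were tested (4 higher, 6 lower, median -0.06). There the lysophospholipid receptor gene S1pr1 was 11.3 and 10.6 FPKM (FM) against 4.51 to 8.78 FPKM (FMC), without overlap, and Gpr132 was 1.36 ± 0.91 and 4.22 ± 1.82 FPKM (SD, n = 2 and 4, limma adjusted p = 0.993 for both).

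Phagosome maturation and digestion had 17 genes tested, 10 higher and 7 lower (median 0.25). Pik3c3, the class III phosphoinositide kinase of the phagosome, was 26.4 and 47.7 FPKM (FM) against 2.79 to 22.8 FPKM (FMC) (limma adjusted p = 0.961). Mon1a, part of the exchange factor for Rab7, was 4.38 and 2.70 FPKM (FM) against 7.26 to 9.86 FPKM (FMC) (limma adjusted p = 0.993), so these genes differed in opposite directions, each without overlap. The nuclear receptors and lipid exporters that respond to the ingested load had 12 genes tested, 9 higher and 3 lower (median 0.06). Rxra, the partner of the liver X receptors, averaged 24.4 ± 7.0 FPKM (FM) and 12.9 ± 5.7 FPKM (FMC), without overlap, and Pparg was at or below 2.09 FPKM in every library (SD, n = 2 and 4, limma adjusted p = 0.993 and 0.994).

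Of the other scavenger receptors 13 were tested (5 higher, 8 lower, median -0.09). Ager, the receptor for advanced glycation end products, was 18.5 FPKM in FM 1, 26.1 FPKM in FM 2 and, from FMC 1 to FMC 4, 1.27, 11.1, 2.88 and 5.08 FPKM, without overlap (log2 difference -2.19 ± 0.79 SE, limma adjusted p = 0.776). Mrc1, the mannose receptor and also a marker of border-associated macrophages, averaged 119 ± 9.6 FPKM (FM) and 73.5 ± 12.3 FPKM (FMC) (SD, n = 2 and 4, limma adjusted p = 0.993).

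The genes most like each member over the 6 libraries were found by the root mean square difference of centred log2(FPKM + 1) values among 8092 named genes with a mean of at least 5 FPKM. They were Psenen (0.045) and Vps26a (0.085) for Gas6, Smurf2 (0.13) and Acbd5 (0.16) for Pros1, and Bfar (0.061) and Orai3 (0.082) for Mertk. For Axl they were Casc4 (0.20) and Samd4b (0.29), and for Mfge8 Ttll1 (0.21) and Zer1 (0.28). For the scavenger receptors they were Csf2rb2 (0.090) and Srgn (0.097) for Cd36, Camkk2 (0.20) and N4bp2 (0.21) for Msr1, and Pdcd5 (0.21) and D1Ertd622e (0.33) for Scarb1. Scarb1 had 19 genes within 0.5 and Mfge8 had 37, against 2206 for Mertk, so the steadier members have many close neighbours and likeness over 6 libraries is a description only.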

How the data were processed

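RNA of the sorted microglia (TRIzol) was amplified by the Ovation RNA-Seq method before paired-end Illumina HiSeq sequencing, per the labels' protocols. Tools in the submitters' processing notes were Cufflinks 2.0.2, CASAVA 1.8.2, Bowtie2 2.0.0 and TopHat2 2.0.4 with the build mm9, with no roles given, and whether reads were counted by strand is not given in these sources. The authors deposited FPKM for 37447 genes in 6 libraries. FPKM are not counts, so no count test was used. The 426 genes without a value in some library were left out of every fit. The 18208 genes that reached 1 FPKM in 2 or more libraries were tested as log2(FPKM + 1) by limma 3.58.1 (R 4.3.3), two-sided and with an intensity trend, at a Benjamini-Hochberg adjusted p of 0.05. For low genes this scale makes a fold smaller than it is in FPKM. The limma p-values set the difference between groups against a spread between libraries that borrows from all genes tested.

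The members and lists were chosen with earlier results of these data known. Always named were the members, Tyro3, Nf1 and Gfap, then the 2 genes of smallest p in each list and the 2 nearest patterns of each member. A gene named by this rule is not reported here. Marker lists covered microglia, border-associated macrophages, monocytes, neutrophils, dendritic cells, astrocytes, oligodendrocytes and their precursors, endothelium, pericytes and fibroblasts, T cells, B cells and erythroid cells. Summed over their markers, those not described elsewhere ran over the 6 libraries from 76.7 to 178 FPKM for monocytes, 49.9 to 499 FPKM for neutrophils, 12.0 to 37.5 FPKM for dendritic cells, 17.2 to 46.0 FPKM for oligodendrocytes, 1.76 to 15.5 FPKM for their precursors and 34.9 to 156 FPKM for B cells. Microglial markers summed to 3120 to 6444 FPKM. Motifs and summed ratios were chosen after values were seen. Promoter windows are RefSeq on GRCm38.p6, while gene positions are those of the table in mm9. Alternatives changed the pseudocount (0.1), the filter (none, or a mean of 5 FPKM or more), the scaling (median ratio, quantile) or the variance model (no intensity trend, array weights), added sex, replicate number or adjacent title dates as a term, or left out each library. What the title dates stand for is not stated in the labels. A fit without an FM library assumes that the other FM library varies like FMC.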

Additional observations from a re-analysis of the deposited data

Results flagged for a closer look

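Mfge8 differed in direction between libraries labelled male and female. Both FMC libraries labelled male (1.70 and 2.49 FPKM) lay below the male FM library (4.12 FPKM), and both labelled female (20.7 and 12.7 FPKM) lay above the female FM library (2.63 FPKM). The interaction of genotype and sex was -2.99 ± 1.37 (SE, log2) and did not pass (limma, adjusted p = 0.999). FMC 1, 1 of the 2 libraries labelled female in FMC, has mixed sex markers, and each sex has 1 FM library. With so few libraries such a split can arise without any effect of sex, and its share over all genes was not counted. None of 17 genes, ratios and sums had an FMC library past the 95% critical gap of 0.829 for 4 samples.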

How the results depend on the processing

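Of the 8 members 0 passed in the deposited values and in each of the 16 alternatives, with the lowest adjusted p at 0.812 (Axl). Axl and Cd36 stayed above 0, and Gas6 and Pros1 below 0, in all of them. Signs changed for Mertk under median ratio scaling (0.12), for Mfge8 with the title date block (-0.49) and for Scarb1 with the replicate block (0.23). With 1 library left out the log2 differences ran from -0.13 to 0.07 for Mertk (0.072 without FM 2 and 0.05 without FMC 2), -0.036 (without FM 2) to 0.64 for Msr1, -0.98 to 0.17 (without FMC 3) for Scarb1, 0.64 to 1.40 for Axl, 0.26 to 1.02 for Cd36, -0.73 to -0.47 for Gas6, -1.03 to -0.72 for Pros1 and 0.23 to 1.23 for Mfge8. The median over the members became -0.32 with the title date block, and ran from -0.04 to 0.35 with 1 library left out. The number of members with every FMC library above FM went from 0 to 2 under median ratio scaling (Axl and Cd36) and 1 under quantile normalization (Axl), and to between 0 and 2 with 1 library left out. Those with every FMC library below FM went from 2 to 1 under median ratio scaling (Pros1 remained).

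Over all genes, the 0 higher and 5 lower calls became 1 and 0 with a pseudocount of 0.1, 2 and 1 with the title date block, and between 0 and 4 higher and between 0 and 4 lower with 1 library left out. Lower calls were 0 without a filter, with a mean of at least 5 FPKM, with sex as a covariate and with the replicate block, and 10 without an intensity trend. The median of the nuclear receptors and lipid exporters became 0.20 under median ratio scaling, 0.21 under quantile normalization and -0.13 with the replicate block. That of phagosome maturation became -0.098 with the replicate block and -0.092 with the title date block, and that of the other scavenger receptors -0.57 with the replicate block. The cause was not tested. Correlations of deviations from the group mean were 0.031 and -0.057 for same-numbered libraries and 0.057 and -0.068 for those with adjacent title dates. The deviations of 2 FM libraries are exact opposites, so a correlation with 1 is the reverse of that with the other. These correlations cannot decide whether either scheme pairs the libraries, and neither is shown to. The replicate block called no member. With 2 FM libraries and no read totals, precision is set by the spread between libraries, and the widest 95% interval of a member was -1.50 to 3.01 (Mfge8, log2).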
